A study of Mus musculus with 9 samples.

Results

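The beta cell transcription factors described here are Mafa, Pdx1, Nkx6-1, Nkx2-2, Neurod1, Pax6, Isl1, Foxa2, Insm1 and Myt1, DNA-binding proteins of the insulin-producing cell of the pancreatic islet. They were taken by gene symbol from a table of 56748 genes. All 10 symbols were found, and all 10 were among the 17276 genes with enough reads to be tested. Total RNA of primary pancreatic islets from wt C57bl/6 mice had been sequenced in 9 libraries, with the aim of examining whether nanoparticles protect islets under inflammation. Particle islets (3 libraries) were exposed for 48 h to the cytokines IL-1beta, TNF-alpha and IL6 together with PD-G-MSNPs, which are polydopamine-coated mesoporous silica nanoparticles. Inflamed islets (3 libraries) were exposed to the same cytokines for 48 h without particles, and control islets (3 libraries) were healthy and untreated. The labels give no time in culture for control islets, so culture time and cytokines cannot be told apart. No islets given particles without cytokines were analysed here, so the particles are seen only on top of the cytokines. Whether the 3 libraries of a group came from separate mice or islet preparations is not stated in the labels, so p-values measure only the spread between these libraries, which may be technical.

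These factors form a network in which members bind the control regions of insulin, of genes for glucose sensing and secretion, and of each other. Pdx1, Foxa2, Nkx2-2, Nkx6-1, Neurod1, Insm1, Myt1, Pax6 and Isl1 already act while the pancreas and its endocrine cells form, whereas Mafa appears late and marks the mature mouse beta cell. Mafa, Pdx1 and Nkx6-1 are largely restricted to beta cells (with Pdx1 also in delta cells) among adult mouse islet cells, and the other members are also made by alpha, delta or other endocrine cells.

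The total count per library was 17832949 to 55865759. Insulin transcripts, from Ins1 and Ins2, took 8.55% to 21.6% of counts in particle islets, 13.0% to 21.2% in inflamed islets and 28.5% to 29.2% in control islets, so the libraries carried the defining transcript of beta cells. Particle replicate 2 stood apart from the other particle libraries and lay nearest to the controls. On the first principal component, which held 56.5% of the variance, the particle libraries lay at 39.6, -27.4 and 85.6, the inflamed libraries between 88.2 and 134.6, and the control libraries between -147 and -142. The summed level of 10 alpha cell markers (in CPM, read counts scaled to a common library size) also set this library apart, at 7983 CPM against 481 and 134.8 CPM in particle replicates 1 and 3. Results on particle islets are therefore given with and without replicate 2.

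Start regions of the genes are described first. Whether the members act on one another in these islets was not tested. RefSeq (build GRCm38.p6, an earlier build than the GRCm39 of the deposited tables) gave 13 promoters for 8 of the 10 genes, each holding 250 bases before and 50 bases after a transcript start. None was found under the symbols Mafa and Insm1, so the motif counts do not cover these members. Motifs were searched on both strands. The motif TGCTGA, part of the Maf recognition element, was found in 3 of the 13 promoters, those of Neurod1, Foxa2 and Nkx6-1. It was found in 19.5% of all 32851 mouse promoters of this length. The forkhead motif TGTTTAC, of the kind bound by Foxa2, was found in 1 of the 13, a Myt1 promoter that held it at 2 places, and in 3.65% of all promoters. These 4 promoters are printed 5′ to 3′ on the strand of the gene, with the motif in capitals on whichever strand it lies (TCAGCA and GTAAACA are the reverse complements).
Neurod1, chr2:79456587-79456886, minus strand: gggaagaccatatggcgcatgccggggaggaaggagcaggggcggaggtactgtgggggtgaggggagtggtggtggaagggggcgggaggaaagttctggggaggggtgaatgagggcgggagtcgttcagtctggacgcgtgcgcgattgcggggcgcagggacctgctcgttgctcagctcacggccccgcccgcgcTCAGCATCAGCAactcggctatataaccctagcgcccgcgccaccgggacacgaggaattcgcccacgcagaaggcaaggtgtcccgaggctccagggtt
Foxa2, chr2:148045899-148046198, minus strand: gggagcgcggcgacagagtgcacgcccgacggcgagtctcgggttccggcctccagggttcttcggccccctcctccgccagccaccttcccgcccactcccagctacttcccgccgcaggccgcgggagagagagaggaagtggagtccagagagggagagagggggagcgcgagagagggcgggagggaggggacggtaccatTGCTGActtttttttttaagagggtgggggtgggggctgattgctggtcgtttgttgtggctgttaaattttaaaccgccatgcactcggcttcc
Nkx6-1, chr5:101664662-101664961, minus strand: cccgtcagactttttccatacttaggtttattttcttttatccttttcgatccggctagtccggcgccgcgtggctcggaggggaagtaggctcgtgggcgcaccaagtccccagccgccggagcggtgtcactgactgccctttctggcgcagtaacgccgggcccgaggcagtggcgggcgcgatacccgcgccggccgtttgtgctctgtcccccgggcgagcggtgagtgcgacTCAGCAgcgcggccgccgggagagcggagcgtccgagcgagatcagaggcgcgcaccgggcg
Myt1, chr2:181766779-181767078, plus strand: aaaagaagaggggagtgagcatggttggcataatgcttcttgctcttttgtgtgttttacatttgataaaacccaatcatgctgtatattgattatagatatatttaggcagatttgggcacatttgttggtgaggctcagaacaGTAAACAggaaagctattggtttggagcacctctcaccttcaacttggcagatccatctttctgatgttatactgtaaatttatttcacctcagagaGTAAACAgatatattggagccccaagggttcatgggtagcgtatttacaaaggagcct
The Neurod1 promoter holds the Maf motif at 2 adjacent places, and the other promoters with that motif hold it once.

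Motifs of the factors that cytokines activate were also searched. The STAT motif TTCNNNGAA was found in 0 of the 13 member promoters and in 8.30% of all promoters. The kappa B motif (GGG and CC with 5 bases between) was found in 5 of the 13 (promoters of Foxa2, Myt1, Neurod1, Pax6 and Pdx1), and in 50.8% of all promoters. The E-box CANNTG, the kind of site bound by Neurod1 and its partners, was found in 8 of the 13 and in 72.3% of all promoters, and the homeodomain motif TAATTA in 0 of the 13 and in 5.29%. Such matches describe letters in these windows and not binding.

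All 10 factors were expressed in control islets, over a wide range of levels. Levels of different genes are compared per gene length, as FPKM, which divides counts by the length of the gene and by library size. Mean FPKM in control islets ran from 4.69 for Myt1 to 1026 for Mafa, in the order Mafa, Nkx6-1, Insm1, Nkx2-2, Pdx1, Foxa2, Neurod1, Pax6, Isl1 and Myt1. In this order Nkx6-1 and Insm1, Foxa2 and Neurod1, and Pax6 and Isl1 overlapped between libraries, and every other neighbouring pair was separate. Among the 1525 genes to which the deposited table assigns a transcription factor family, Mafa ranked 1 in all 3 control libraries by FPKM. Of the 10 members, 6 or 7 stood among the 20 highest of these genes in each control library.

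All 10 factors were lower in inflamed than in control islets. In inflamed against control islets all 10 were called lower (edgeR's quasi-likelihood test, Benjamini-Hochberg adjusted p under 0.05), where 19.0% of all 17276 genes tested, and 19.1% of the 1039 tested genes with a transcription factor family, were called lower. The ranges of the groups did not overlap for any of the 10, a pattern seen in the lower direction for 28.5% of all genes tested. The median log2 fold change of the members was -2.32, beside 0.05 over all genes tested and 0.06 over genes with a transcription factor family. In these bulk libraries, fewer cells of a type and less RNA per cell cannot be told apart.

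**Figure D1:**
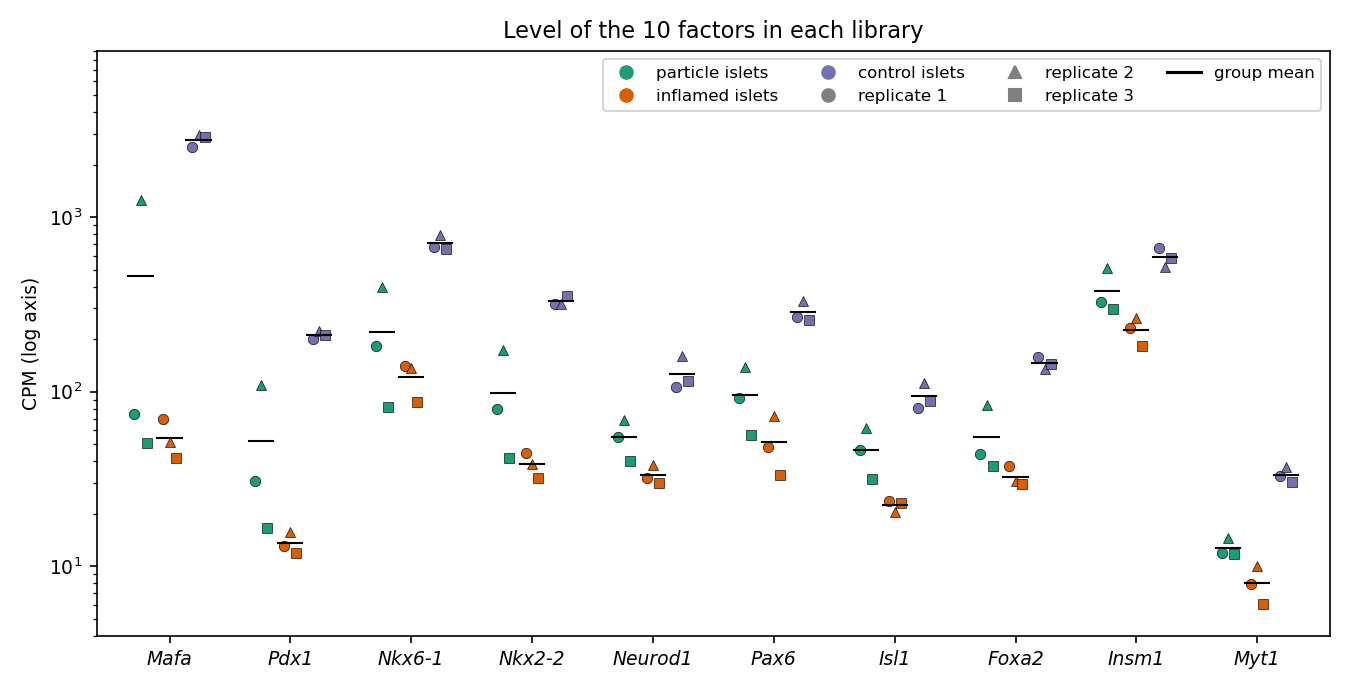
Level of each factor in every library, in CPM on a log axis (x axis, the factors; points are libraries, colours groups and short lines group means). Every inflamed library lies under every control library for all 10 factors, and particle replicate 2 is the highest particle library for each factor, at 1262 CPM of Mafa against 74.5 and 50.7 CPM in particle replicates 1 and 3.

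Mafa, the factor of the mature beta cell that binds the insulin promoter and drives genes for glucose-stimulated secretion, had the largest estimate among the members. The gene (ENSMUSG00000047591) lies on chromosome 15 from 75617339 to 75620077, in GRCm39 coordinates as for all genes below. Mafa was measured at 74.5, 1262 and 50.7 CPM in particle islets, at 70.1, 51.3 and 41.6 CPM in inflamed islets and at 2518, 2943 and 2875 CPM in control islets. The inflamed libraries lay close together and far below every control, whereas the particle libraries were split, with replicate 2 far above replicates 1 and 3. The mean in inflamed islets was 51.2-fold lower than in control islets (54.3 ± 14.5 against 2779 ± 228 CPM, SD, n = 3 each), with a fitted log2 fold change of -5.68 (SE 1.22, edgeR adjusted p = 0.00640). The fit shares its estimate of the spread over all 9 libraries, including the split particle ones. Without particle replicate 2 the same log2 fold change was -5.72 (edgeR adjusted p = 8.52e-07).

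Pdx1, needed for pancreas formation and for insulin transcription in the adult, was next. Pdx1 (ENSMUSG00000029644, chromosome 5 from 147206769 to 147212658) stood at 30.7, 109 and 16.5 CPM in particle islets, at 13.0, 15.8 and 12.0 CPM in inflamed islets and at 200.1, 224 and 211 CPM in control islets. All particle libraries lay above all inflamed ones and below all controls. The inflamed mean was 15.6-fold lower than the control mean (log2 fold change -3.96, SE 0.59, edgeR adjusted p = 0.000785). The antisense long noncoding gene Plut overlaps Pdx1 over 1563 bases. Plut counts equalled 11.7% of Pdx1 counts in inflamed islets and 17.6% in control islets, and it is not known from the labels or headers if reads were counted by strand, so the share of each gene in these counts is uncertain. Plut itself was also called lower in inflamed than in control islets (log2 fold change -4.58, edgeR adjusted p = 0.00670).

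The homeodomain factors Nkx6-1 and Nkx2-2 keep beta cells from taking on other endocrine fates. For Nkx6-1 (ENSMUSG00000035187, chromosome 5 from 101806005 to 101812862) the values were 183, 397 and 81.9 CPM in particle islets, 139.6, 136 and 87.0 CPM in inflamed islets and 674, 787 and 661 CPM in control islets. It was 5.85-fold lower by the means of inflamed and control islets (log2 fold change -2.55, SE 0.47, edgeR adjusted p = 0.00191). Particle replicate 3 lay below every inflamed library for this gene, the one such case among the 10 members. For Nkx2-2 (ENSMUSG00000027434, chromosome 2 from 147019466 to 147036163) the values were 79.9, 173 and 41.9 CPM in particle islets, 44.5, 38.8 and 31.9 CPM in inflamed islets and 317, 317 and 353 CPM in control islets. The inflamed mean was 8.58-fold lower than the control mean (log2 fold change -3.10, SE 0.43, edgeR adjusted p = 0.000422), and particle replicate 3 lay within the inflamed range. The antisense genes 6430503K07Rik and Nkx2-2os overlap Nkx2-2, with counts equal to 21.1% and 2.47% of Nkx2-2 counts in inflamed islets and to 3.91% and 0.0205% in control islets.

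Neurod1, a basic helix-loop-helix factor that binds the insulin E-box, Pax6, a paired-domain factor that activates islet hormone genes, and Isl1, a LIM-homeodomain factor of endocrine cells, were also lower. Neurod1 (ENSMUSG00000034701, chromosome 2 from 79282865 to 79287095) was at 55.3, 69.1 and 40.3 CPM in particle islets, 31.9, 37.8 and 30.2 CPM in inflamed islets and 107, 159.9 and 115 CPM in control islets. Its inflamed mean was 3.82-fold lower than its control mean (log2 fold change -1.93, SE 0.24, edgeR adjusted p = 0.000261). The particle libraries formed a middle range that touched neither other group. Pax6 (ENSMUSG00000027168, chromosome 2 from 105499245 to 105527709) was at 91.8, 139 and 56.7 CPM in particle islets, 48.2, 72.6 and 33.4 CPM in inflamed islets and 268, 332 and 256 CPM in control islets, and was 5.55-fold lower in inflamed islets (log2 fold change -2.47, SE 0.36, edgeR adjusted p = 0.000546). Particle replicate 3 lay within the inflamed range for Pax6. Isl1 (ENSMUSG00000042258, chromosome 13 from 116434817 to 116446225) was at 46.1, 62.0 and 31.7 CPM in particle islets, 23.6, 20.3 and 23.2 CPM in inflamed islets and 81.2, 113 and 88.0 CPM in control islets, and was 4.20-fold lower in inflamed islets (log2 fold change -2.07, SE 0.25, edgeR adjusted p = 0.000211). For Isl1 the 3 groups were again separate. Neurod1 lies wholly within Cerkl on the same strand, whose counts equalled 14.0% of Neurod1 counts in inflamed islets and 5.07% in control islets, and Pax6 overlaps the antisense gene Pax6os1, whose counts equalled 7.03% of Pax6 counts in inflamed islets and 5.98% in control islets, so these counts too are uncertain in part. The other 6 members overlap no gene of the table.

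Foxa2, the pioneer factor that opens islet enhancers including those of Pdx1, and the zinc finger factors Insm1 and Myt1, which promote endocrine differentiation, complete the set. Foxa2 (ENSMUSG00000037025, chromosome 2 from 147884797 to 147888889) was at 44.0, 84.0 and 37.7 CPM in particle islets, 37.4, 30.8 and 29.4 CPM in inflamed islets and 158, 136 and 145 CPM in control islets. It was 4.48-fold lower by the means of inflamed and control islets (log2 fold change -2.17, SE 0.29, edgeR adjusted p = 0.000336), and the lowest particle library lay just above the highest inflamed one. Insm1 (ENSMUSG00000068154, chromosome 2 from 146063841 to 146066940) was at 326, 509 and 298 CPM in particle islets, 231, 263 and 183 CPM in inflamed islets and 664, 517 and 584 CPM in control islets. Insm1 had the smallest fold of the 10, with an inflamed mean 2.61-fold below the control mean (log2 fold change -1.38, SE 0.26, edgeR adjusted p = 0.00212), and particle replicate 2 came close to the lowest control. Myt1 (ENSMUSG00000010505, chromosome 2 from 181405125 to 181469590), the member with the lowest level, was at 12.0, 14.6 and 11.8 CPM in particle islets, 7.94, 9.99 and 6.10 CPM in inflamed islets and 32.8, 37.0 and 30.2 CPM in control islets. It was 4.16-fold lower in inflamed islets (log2 fold change -2.06, SE 0.23, edgeR adjusted p = 0.000123), and its particle libraries had the lowest coefficient of variation of the 10, at 12.3%.

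**Figure D2:**
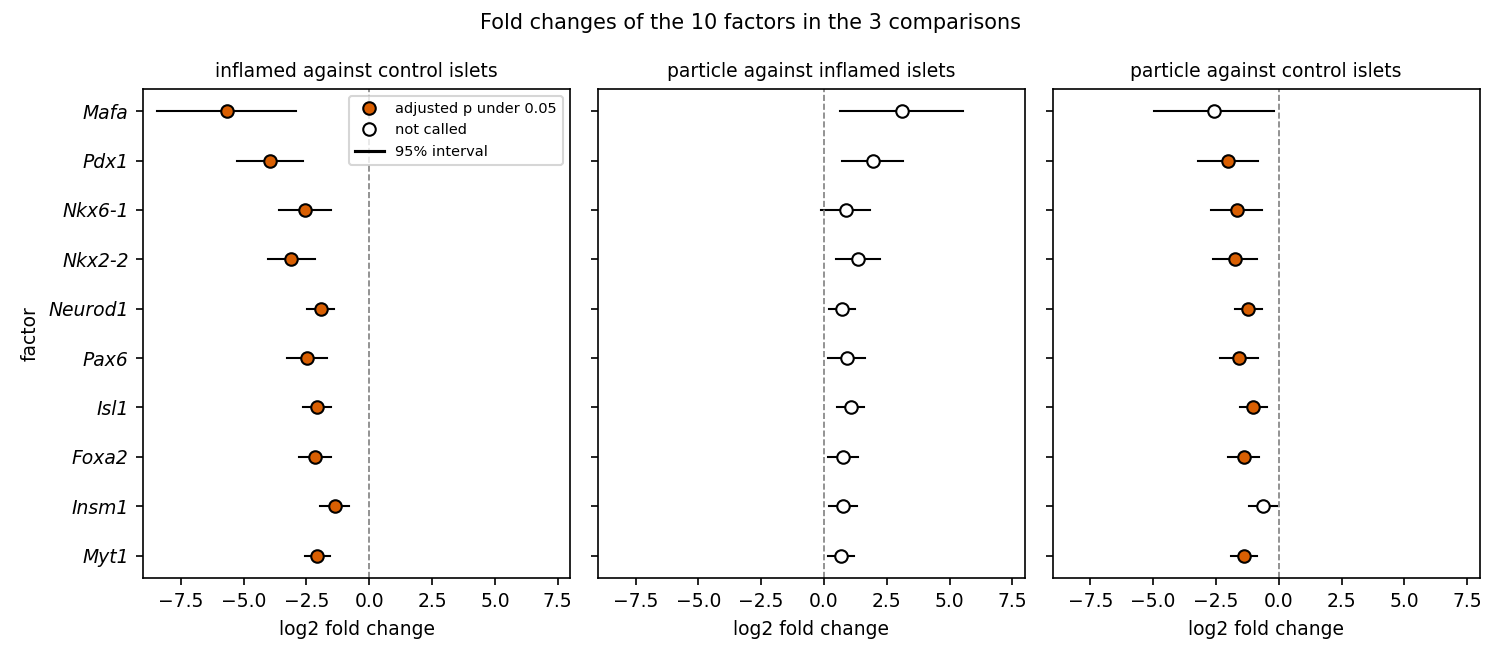
Log2 fold change of each factor in the 3 comparisons (x axis) with its 95% interval (lines), filled where the adjusted p was under 0.05. All 10 points are filled and negative for inflamed against control islets, none is filled for particle against inflamed islets, and 8 are filled and negative for particle against control islets.

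The order of the levels differed in inflamed islets. In inflamed islets mean FPKM ran from 1.09 for Myt1 to 71.1 for Insm1, in the order Insm1, Nkx6-1, Mafa, Foxa2, Nkx2-2, Neurod1, Pdx1, Isl1, Pax6 and Myt1. Insm1 and Nkx6-1 were each separate from their neighbours, while Mafa, Foxa2, Nkx2-2 and Neurod1 formed a run in which each overlapped the next, as did Pdx1, Isl1 and Pax6. Mafa made up 9.02% to 12.5% of the summed FPKM of the 10 members in inflamed islets and 53.9% to 57.7% in control islets. Insm1 made up 38.8 ± 2.32% in inflamed islets and 10.6 ± 1.87% in control islets (SD, n = 3 each). Among genes with a transcription factor family, Mafa ranked 59, 74 and 86 in the inflamed libraries and 1 in each control library. Insm1 ranked 19, 11 and 21 in the inflamed libraries and 5 in each control library. Pdx1 ranked 266, 222 and 244 in the inflamed libraries and 15, 9 and 12 in the control libraries. The highest-ranking factor in the inflamed libraries was Atf5 in replicate 1 and Ddit3, a stress-response factor, in replicates 2 and 3. Of the members, 0 or 1 stood among the 20 highest in an inflamed library. In particle islets mean FPKM ran from 1.71 for Myt1 to 162 for Mafa, and all neighbours in that order overlapped except Pax6 and Myt1. Mafa ranked 43, 1 and 63 in the particle libraries and made up 9.29%, 48.4% and 8.89% of the summed FPKM, so its rank and share in replicate 2 lay near those of the controls.

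**Figure D3:**
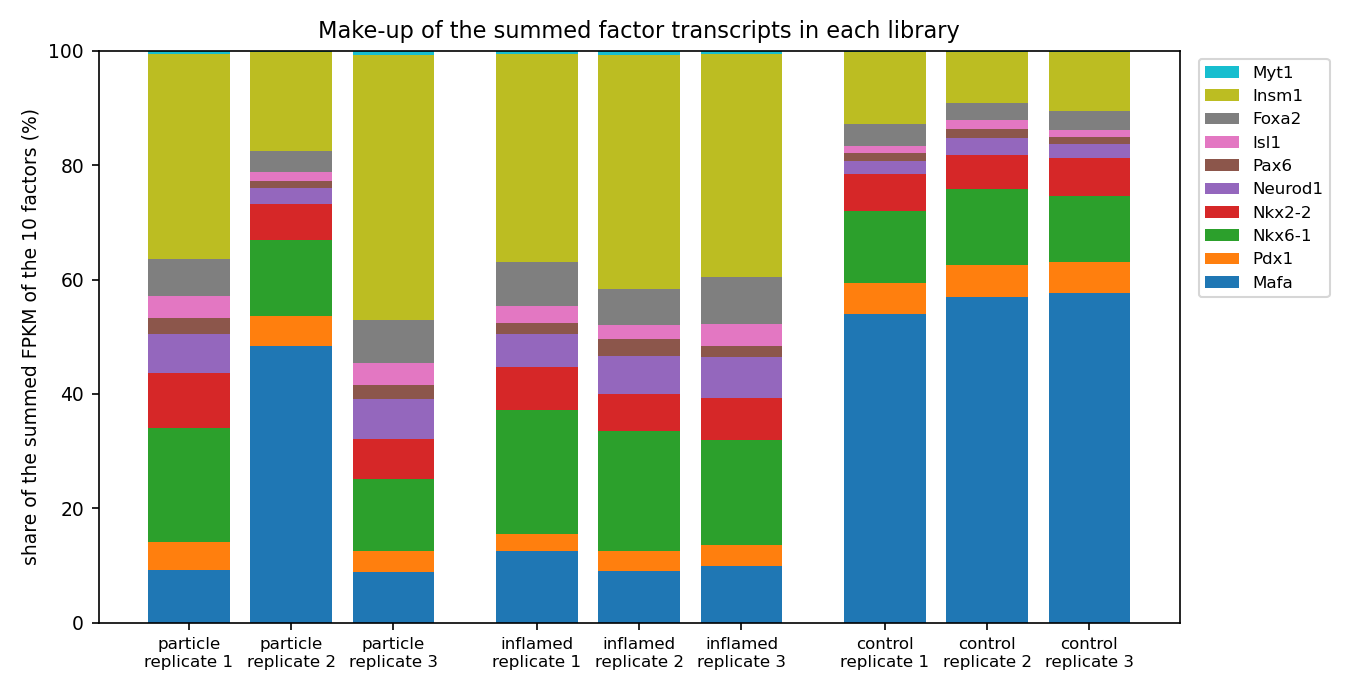
Share of the summed FPKM of the 10 factors taken by each factor (y axis, percent) in each library (x axis, particle, inflamed and control islets from left to right). Mafa fills over 50% of the bar in every control library, at most 12.5% in any inflamed library, and 48.4% in particle replicate 2.

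A direct comparison of members used the log2 CPM of each member minus the mean of the other 9 within a library. For Mafa this difference was 0.53 ± 0.29 in inflamed islets and 3.81 ± 0.10 in control islets (SD, n = 3 each), a shift of -3.28 relative to the rest. Pdx1 shifted by -1.35 and Nkx2-2 by -0.40, whereas Insm1 shifted by 1.51, Neurod1 by 0.93, Isl1 by 0.77, Myt1 by 0.75 and Foxa2 by 0.65. Nkx6-1, with a shift of 0.19, and Pax6, with one of 0.24, overlapped between groups. These shifts sum to 0 over the members by construction, so the shift of Mafa raises that of every other member. With Mafa left out of the comparison, a setting chosen after seeing the data, Insm1 shifted by 1.16, Neurod1 by 0.57 and Myt1 by 0.39, and Pdx1 by -1.74 and Nkx2-2 by -0.77, each with no overlap between inflamed and control libraries. In that setting Isl1 (0.41), Foxa2 (0.28), Nkx6-1 (-0.17) and Pax6 (-0.13) overlapped between groups.

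The summed counts of the 10 factors were also lower relative to insulin in every inflamed library than in every control. Single members were not set against insulin, so this need not hold for each of them. The 10 members together had 12.6, 12.8 and 4.73 counts per 1000 insulin counts in particle islets, 3.36, 5.86 and 2.17 in inflamed islets and 15.6, 17.99 and 16.2 in control islets. Every inflamed library lay below every control, and the lowest particle library lay within the inflamed range. The ratio also rises where insulin is low, and insulin took 8.55% of counts in particle replicate 1, the lowest share of any library. The summed FPKM of the members in that library was 288, beside 149 to 204 in inflamed and 1698 to 1935 in control libraries. On the log2 scale the ratio averaged -8.16 ± 0.72 in inflamed islets and -5.91 ± 0.11 in control islets (SD, n = 3 each), a difference of -2.25. Particle islets averaged -6.77 ± 0.82, higher than inflamed islets by 1.39 with overlapping ranges, and differed from control islets by -0.86 with all particle libraries below all controls. The sum weights members by their counts, and with the mean of the log2 counts of the members in its place the difference from control islets was -0.52 and the ranges overlapped, with particle replicate 1 at -10.17 and control replicates 1 and 3 at -10.34 and -10.36. Without particle replicate 2 the difference from inflamed islets was 1.14 and that from control islets -1.10, and without particle replicate 3 they were 1.86 and -0.38.

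In particle against inflamed islets no member passed the test, as no gene did in the whole table (0% of 17276 tested were called higher by edgeR). DESeq2 called 506 genes higher and 276 lower, among them 3 members, and limma-voom called 1 higher and 14 lower, with 0 members. All 10 estimates were positive, with a median log2 fold change of 0.88 beside 0.04 over all genes tested. Taken singly, 9 of the 10 had an unadjusted edgeR p under 0.05, and 2603 of all genes did. Pdx1, Neurod1, Isl1, Foxa2, Insm1 and Myt1 had particle libraries wholly above the inflamed ones, 6 of 10 members, where 8.87% of all genes tested were so. Isl1 came nearest to the threshold, with a log2 fold change of 1.06 (95% interval 0.52 to 1.60, edgeR adjusted p = 0.121). Pdx1 had an estimate of 1.94 (0.73 to 3.14, edgeR adjusted p = 0.169) and Nkx2-2 one of 1.36 (0.48 to 2.23, edgeR adjusted p = 0.174). Mafa had the highest estimate and the widest interval (3.09, 0.65 to 5.53, edgeR adjusted p = 0.233). For Nkx6-1 the interval included 0 (0.87, -0.11 to 1.85, edgeR adjusted p = 0.394). The remaining estimates were 0.68 for Myt1, 0.72 for Neurod1, 0.74 for Insm1, 0.76 for Foxa2 and 0.90 for Pax6, with adjusted p between 0.203 and 0.250.

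These estimates rested unequally on the 3 particle libraries. Replicates 1 and 2 lay above every inflamed library for all 10 members, and replicate 3 did so for 6 and lay below all of them for Nkx6-1. On a log2 scale where 0% is the inflamed mean and 100% the control mean, the members of replicate 2 had a median position of 69.0%, from 42.9% for Myt1 to 85.4% for Insm1. The members of replicate 1 had a median of 32.1%, from 8.56% for Mafa to 50.9% for Isl1. Those of replicate 3 had a median of 9.25%, from -20.5% for Nkx6-1 to 30.02% for Insm1. For Mafa the positions were 8.56%, 80.1% and -1.16% in replicates 1, 2 and 3, so replicates 1 and 3 lay near the inflamed mean and replicate 2 nearer to the control mean. Without replicate 2 the estimates were 0.21 for Mafa, 0.14 for Nkx6-1, 0.80 for Pdx1, 0.80 for Isl1 and 0.67 for Nkx2-2, with a median of 0.53 over the members and 0 called. Without replicate 3, 5 members were called higher (edgeR adjusted p = 0.0418 for Mafa, 0.0190 for Pdx1, 0.0190 for Nkx2-2, 0.0492 for Neurod1 and 0.0167 for Isl1), as were 636 of all genes. The coefficient of variation of the CPM had a median over members of 44.2% in particle islets, 17.1% in inflamed islets and 10.04% in control islets.

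**Figure D4:**
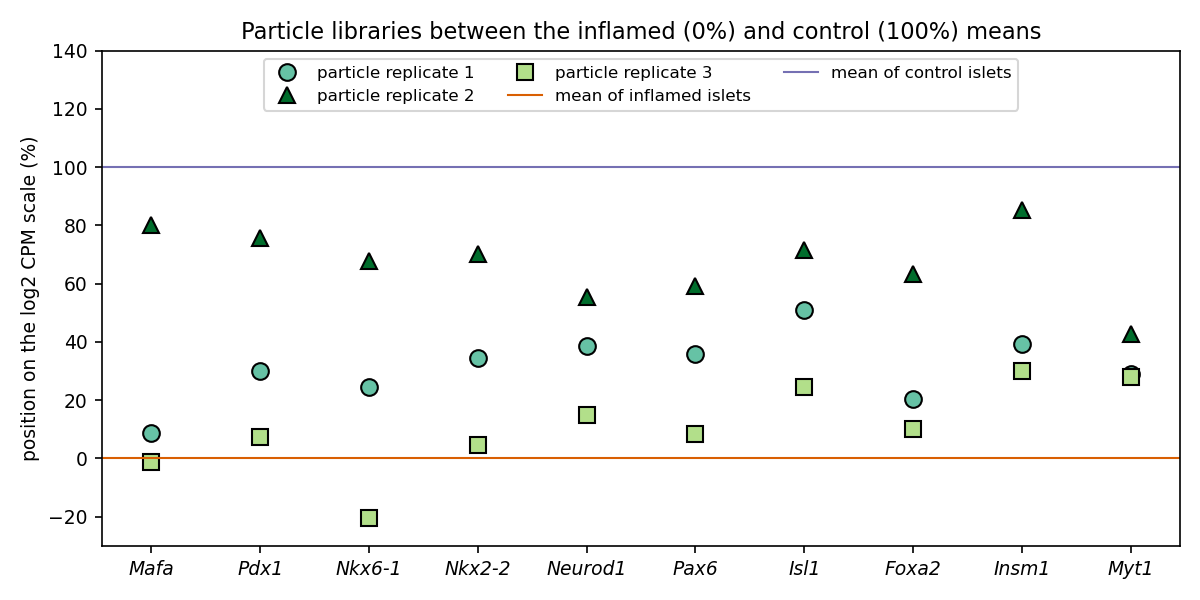
Position of each factor (x axis) in the 3 particle libraries on a log2 CPM scale (y axis, percent) where 0% is the mean of the inflamed and 100% the mean of the control libraries. Replicate 2 lies highest for all 10 factors, from 42.9% to 85.4%, and Nkx6-1 is spread widest, from -20.5% to 67.8%.

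Set against control islets, particle islets still had lower levels of 8 members. Pdx1, Nkx6-1, Nkx2-2, Neurod1, Pax6, Isl1, Foxa2 and Myt1 were called lower, where 5.92% of all genes tested were called lower. All 10 members had particle libraries wholly below the controls, against 20.6% of all genes tested. The median log2 fold change was -1.49, beside 0.05 over all genes. Myt1 had the smallest adjusted p (log2 fold change -1.38, SE 0.23, edgeR adjusted p = 0.00247), and Neurod1 followed (-1.21, SE 0.24, edgeR adjusted p = 0.00756). Pdx1 had an estimate of -2.03 (SE 0.54, edgeR adjusted p = 0.0303). Mafa was not called, at 462 ± 692 CPM in particle islets and 2779 ± 228 CPM in control islets (SD, n = 3 each, log2 fold change -2.59, SE 1.05, edgeR adjusted p = 0.123). Insm1 was not called either, at 378 ± 114 CPM in particle islets and 588 ± 73.6 CPM in control islets (log2 fold change -0.64, SE 0.25, edgeR adjusted p = 0.105). Without particle replicate 2 all 10 were called lower, with -5.51 for Mafa (edgeR adjusted p = 4.36e-06) and -0.96 for Insm1 (edgeR adjusted p = 0.0154). Without particle replicate 1 it was 4 members, without particle replicate 3, control replicate 2 or control replicate 3 it was 5, and without control replicate 1 it was 6. Calls over all genes changed too. Without particle replicate 2, 2121 of 18028 genes were called lower, without particle replicate 1 224 of 18043, and without particle replicate 3 307 of 17880. Without control replicates 1, 2 and 3 in turn, 488, 328 and 228 genes were called lower. The calls of Neurod1, Pax6, Foxa2 and Myt1 in this comparison held whichever library was left out. This comparison shares its particle libraries with the one before and its control libraries with that of inflamed against control islets, so the 3 sets of values are not independent.

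Genes known as targets of these factors in beta cells fell with them in inflamed islets. Of 18 listed targets, 0 were called higher and 16 lower in inflamed against control islets (Ins2 and Cox6a2 were not called), where 19.0% of all genes tested were called lower. Their median log2 fold change was -2.57, beside 0.05 over all genes. Slc30a8, the zinc transporter of insulin granules, was at 45.5 ± 3.75 CPM in inflamed islets and 440.3 ± 47.4 CPM in control islets (SD, n = 3 each, log2 fold change -3.27, edgeR adjusted p = 0.000251). Glp1r, the receptor of the incretin GLP-1, was at 37.3 ± 9.85 CPM in inflamed islets and 569 ± 115 CPM in control islets (-3.93, edgeR adjusted p = 0.000473). Pcx, pyruvate carboxylase, was at 45.0 ± 9.33 CPM in inflamed islets and 264 ± 0.766 CPM in control islets (-2.55, edgeR adjusted p = 0.000786). Ffar1, a fatty acid receptor that potentiates insulin secretion, was at 10.4 ± 0.942 CPM in inflamed islets and 191 ± 47.5 CPM in control islets (-4.20, edgeR adjusted p = 0.000920). In particle against control islets 9 of the 18 targets were called lower and 0 higher, with a median of -1.58, where 5.92% of all genes tested were called lower. That count was 16 without particle replicate 2, 2 without particle replicate 1, 5 without particle replicate 3, 1 without control replicate 2 or 3, 4 without control replicate 1 and 5 without inflamed replicate 1. Calls over all genes in these fits are given above, and without inflamed replicate 1 683 of 18073 genes were called lower. In particle against inflamed islets edgeR called 0 of the 18, where 13 had an unadjusted p under 0.05, and the median was 1.18. Without particle replicate 2 that median was 0.65 with 0 called, without particle replicate 3 it was 12 targets that were called higher, and DESeq2 called 9 higher. Over all genes, 636 were called higher without particle replicate 3 and 506 by DESeq2.

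Among other transcription factors of the islet, 17 of 25 tested (28 listed) were called lower in inflamed against control islets and 0 higher, where 19.0% of all genes tested and 19.1% of genes with a transcription factor family were called lower. Of the 25 estimates 20 were negative. Their median log2 fold change was -1.58, also when genes with a group at 0 counts were set to their bound, beside 0.06 over genes with a transcription factor family. Mlxipl, the glucose-responsive factor ChREBP, was at 82.9 ± 26.1 CPM in inflamed islets and 679.9 ± 28.7 CPM in control islets (log2 fold change -3.04, edgeR adjusted p = 0.000329). Rfx6, an endocrine factor upstream of several members, was at 14.4 ± 4.98 CPM in inflamed islets and 74.9 ± 8.17 CPM in control islets (-2.38, edgeR adjusted p = 0.000316). Hnf4a, a liver and pancreas factor linked to inherited diabetes, was lower in inflamed islets (log2 fold change -2.67, edgeR adjusted p = 0.000905). Neurog3, the factor that starts endocrine differentiation, was at 0.535 ± 0.602 CPM in inflamed islets and 9.09 ± 1.87 CPM in control islets (-3.98, edgeR adjusted p = 0.0180), a call lost without a count filter (adjusted p = 0.0994) and without control replicate 3 or inflamed replicate 1 (0.0543 and 0.0578). Foxa1, the relative of Foxa2, was near 0 in every library and was not tested.

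Close relatives of the members were called at a share near that of all genes. Of 10 tested family members (18 listed), 1 was called higher and 3 lower in inflamed against control islets, where 20.7% of all genes tested were called higher and 19.0% lower, and their median log2 fold change was -0.06. Mafk, a small Maf protein that lacks an activation domain, was at 222 ± 49.1 CPM in inflamed islets and 57.6 ± 8.34 CPM in control islets (log2 fold change 1.95, edgeR adjusted p = 0.000141). Myt1l and St18, the paralogs of Myt1, were lower (-1.65, edgeR adjusted p = 0.000797, and -1.47, edgeR adjusted p = 0.00228), as was Foxa3 (-0.87, edgeR adjusted p = 0.0294). The Foxa3 call was lost without control replicate 1 or 3 or inflamed replicate 2, with adjusted p up to 0.0977. Among 16 tested cofactors and binding partners, 2 were called higher and 5 lower, with a median of -0.21, counts that are likewise read against the 20.7% and 19.0% over all genes. Ldb1, the partner of Isl1 and other LIM-homeodomain proteins, was at 96.9 ± 17.5 CPM in inflamed islets and 226 ± 41.7 CPM in control islets (-1.22, edgeR adjusted p = 0.00507). Lmo4, a LIM-only protein that binds Ldb1, was higher, at 36.2 ± 16.1 CPM in inflamed islets and 10.1 ± 4.04 CPM in control islets (1.85, edgeR adjusted p = 0.00215). Med15, a Mediator subunit, was also higher (1.71, edgeR adjusted p = 0.000251), and Kat2b, an acetyltransferase, and Meis2, a homeodomain partner, were lower (-1.20, edgeR adjusted p = 0.000973, and -1.32, edgeR adjusted p = 0.00168).

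The genes whose levels followed each member most closely were sought among the 10384 protein-coding genes that averaged 5 CPM or more, by the root mean square difference of log2 CPM over the 9 libraries after centring each gene. The nearest to Mafa were Slc2a2, the glucose transporter GLUT2 (0.45), and Trpm5, a cation channel (0.50), both nearer than any member, of which Pdx1 was the closest at 0.99. Slc2a2 is also in the list of targets. Slc2a2 was at 8.67 ± 2.46 CPM in inflamed islets and 402 ± 88.1 CPM in control islets. Pdx1 was followed by Fgd2 (0.15) and Slc16a12 (0.19), Nkx2-2 had Syt13 among its 2 nearest (0.12), and Nkx6-1 was followed by Tle2 (0.13). Isl1 was followed by Abcd3 (0.11), Insm1 by Star (0.12), Myt1 by Fgd1 (0.13), Foxa2 by Chst12 (0.13), Neurod1 by Lman1 (0.14) and Pax6 by Nalf1 (0.15). Among the members themselves Neurod1 and Isl1 were the closest pair, at 0.19. These distances describe 9 libraries that share the treatment groups and carry no test.

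Markers of other cell types differed between the groups in some lists and overlapped in others. Calls in this paragraph are of inflamed against control islets, where 20.7% of all genes tested were called higher and 19.0% lower. For 10 alpha cell markers the summed level was 134.8 to 7983 CPM in particle islets, 140 to 516 CPM in inflamed islets and 7499 to 27552 CPM in control islets, and 7 of 9 tested were called lower in inflamed against control islets. Pou3f4 was at 0 in all inflamed libraries but was not among the genes called. For 7 delta and PP cell markers the sums were 118 to 3540 CPM in particle islets, 175 to 742 CPM in inflamed islets and 2937 to 8435 CPM in control islets, and 2 of 5 tested were called lower in inflamed against control islets. General endocrine markers (8 genes) summed to 8150 to 17862 CPM in particle islets, 8703 to 11346 CPM in inflamed islets and 23394 to 26748 CPM in control islets, and 5 of 8 were called lower. Macrophage markers (12 genes) went the other way, at 341 to 508 CPM in particle islets, 1009 to 1131 CPM in inflamed islets and 313 to 388 CPM in control islets, and 10 of 11 tested were called higher in inflamed islets. Duct markers (8 genes) summed to 1525 to 1692 CPM in particle islets, 1363 to 2576 CPM in inflamed islets and 914 to 1036 CPM in control islets, with 4 of 7 tested called higher in inflamed islets. Endothelial markers (8 genes) summed to 6.44 to 29.5 CPM in particle islets, 4.92 to 9.06 CPM in inflamed islets and 28.9 to 74.1 CPM in control islets, with 5 of 8 called lower. Acinar markers varied within groups, from 6.05 to 3276 CPM in particle islets, from 27.8 to 2659 CPM in inflamed islets and from 22.6 to 1393 CPM in control islets, and 0 of 9 tested were called, also at an unadjusted edgeR p under 0.05. The part of these cell types in the levels of the members was not tested.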

How the data were processed

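The authors deposited raw read counts by gene, as whole numbers, and a table of FPKM values for the same genes and libraries. The submitters' processing notes name HTSeq, DESeq2 and GRCm39; versions and strand use are not given in the sources used here. Untreated columns carry no group word and were assigned to the control titles as the only set left.

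Counts were tested with edgeR 4.0.16 (R 4.3.3): filterByExpr (smallest count 10), TMM factors, a robust quasi-likelihood fit to all 9 libraries, Benjamini-Hochberg adjustment over 17276 genes in each of 3 comparisons, calls at 0.05. SE is the absolute log2 fold change divided by the square root of F, and intervals are 95%. CPM uses TMM-scaled totals. Ratios to insulin and shifts between members were put to exact permutation tests over libraries. With 3 against 3 libraries the smallest possible p of such a test is 0.1, so none could pass 0.05. For the ratio to insulin the exact permutation p was 0.1 in inflamed against control, 0.2 in particle against inflamed and 0.1 in particle against control islets. These results are therefore given as descriptions. The procedure was tested on simulated counts. Replicates of a group differed beyond sampling noise (chi-square per degree of freedom 43.4 to 207), so all were kept.

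The members, gene lists, named genes (the 4 smallest adjusted p of each list, and fixed factors) and tests were chosen with earlier results of these data known. Some genes that this rule names are not reported here, and counts over lists include them. Alternatives were other scalings and filters, DESeq2 1.42.0, limma 3.58.1 (voom, and trend on log2(FPKM + 1) or log2(FPKM + 0.1)), non-robust dispersion, fits limited to the groups compared, a replicate block, and leaving out each library.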

Additional observations from a re-analysis of the deposited data

How the results depend on the processing

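The direction of all 10 members was the same in all 3 comparisons under every alternative that gave an adjusted p. DESeq2 gave none for Mafa in any comparison, so its direction there is not covered. In inflamed against control islets all 10 stayed called, except that DESeq2 gave no adjusted p for Mafa and called the other 9. In particle against inflamed islets 0 were called by edgeR, 1 without a count filter (Isl1), 3 with DESeq2 (Pdx1, Nkx2-2 and Isl1), and 0 to 5 when single libraries were left out. In particle against control islets 8 were called, and 4 to 10 when single libraries were left out. Over all genes, 224 to 2121 were called lower when single libraries were left out. In alternatives chosen after seeing the data, of the 18 targets 0 were called in particle against inflamed islets (9 with DESeq2, 0 to 12 when single libraries were left out), and 9 in particle against control islets (5 without a count filter, 4 with only the 2 groups compared, 1 to 16 when single libraries were left out). A replicate block left the counts of members at 10, 0 and 8; same-numbered libraries correlated between -0.165 and 0.225 in their deviations from group means, so the numbers were not taken as pairs. Among the other genes named, the call of Foxa3 in inflamed against control islets (adjusted p = 0.0536) and that of 6430503K07Rik were lost under the block. Library totals without TMM factors moved the median of all genes in inflamed against control islets to 0.22, with 4240 called higher and 2606 lower (3568 and 3274 with TMM), and in particle against control islets the calls were 3190 and 597 (1961 and 1022 with TMM). With Mafa left out of the members compared, the shifts of Nkx6-1 and Pax6 relative to the others reversed to -0.173 and -0.127. The difference of the members from insulin ranged from -2.62 to -1.79 in inflamed against control, from 0.90 to 1.86 in particle against inflamed and from -1.10 to -0.38 in particle against control islets. The cause of these changes was not tested.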
